A study of Caenorhabditis elegans with 12 samples.

Results

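Messenger RNA levels of *eat-2* mutants were compared with those of wild-type (WT) *Caenorhabditis elegans*, both unexposed to any H2S donor. The 8 libraries are all of those that the sample titles put in these groups, out of 12 in the series, and the 4 others came from WT exposed to the donor FW1256. The *eat-2* mutants were strain DA1116 and WT was strain N2, with 4 libraries each. RNA was taken from whole animals in pools of about 1000 nematodes at age day 6, grown on agar plates seeded with *Escherichia coli* OP50-1. A protocol text that all samples share mentions FW1256, but the titles and a treatment label give it to the exposed WT group alone, and both groups here were taken as unexposed. The study used the mutants as a genetic model of caloric restriction (CR). Such mutants grow more slowly and lay their eggs later than WT, and both groups had the same age in days, so genotype and reproductive or growth stage cannot be told apart.

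EAT-2 is a subunit of a nicotinic acetylcholine receptor in pharyngeal muscle. It transmits the signal that drives rapid pumping, so animals without its function swallow fewer bacteria and are long-lived, lean and slow to reproduce. An adult hermaphrodite carries a large germline beside its somatic tissues, and germline and oocyte transcripts make up a large part of the RNA of a whole animal. The intestine is the organ of digestion and fat storage, makes the yolk that oocytes take up, and is the main site of defence against swallowed bacteria.

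The files give an estimated count per gene and library for 5272 genes, of which 3363 are protein-coding (of 19985 in the annotation) and 1902 are pseudogenes, so what follows describes these genes and not the whole transcriptome. The gene *eat-2* itself was not analysed here per library, and its RNA could therefore not be used as a check of the labels. Totals over these genes were 14842320 to 19170837 counts per library. In a principal component analysis the first component (40.1% of the variance) separated all 4 *eat-2* libraries from all 4 WT libraries, while the second (17.9%) set WT replicate 4 (-24.2) apart from the other WT libraries (3.55 to 15.6). Levels are given as CPM (counts scaled to a common library total by TMM, over the tested genes of these tables). Nothing in the labels says that replicates came from separate cultures, so p-values measure the spread between these samples, which may be technical.

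The *eat-2* mutation went with many small differences in both directions and with a smaller set of larger ones, most of which were rises. Of 3786 genes with enough counts to be tested, 1674 (44.2%) differed at an adjusted p under 0.05 (quasi-likelihood F test of edgeR, p-values adjusted by the Benjamini-Hochberg method). These were 825 genes higher (21.8%) and 849 genes lower (22.4%) in *eat-2* mutants. Called genes had a median log2 change of 0.37 in absolute size, and over all genes tested the median log2 fold change was 0.02. Sizes were unequal in the 2 directions. Among called genes, 174 rose and 22 fell by at least 1 on the log2 scale, and at a limit of 0.5 the counts were 539 and 76. In 1496 of the called genes, the 4 values of one group lay entirely above or below the 4 values of the other, as they did in 43.0% of all genes tested.

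Direction went with level. Genes called higher had a median of 485 counts per library and genes called lower one of 4610. Genes were divided by level into 4 classes of equal number. In the lowest class (means of 7.25 to 123 counts), 22.6% of genes were higher and 1.90% lower, with a median log2 fold change of 0.42. In the highest class (4450 counts and above), 12.0% were higher and 46.9% lower, with a median of -0.12. Summed over genes, those called lower took 41.5% of the CPM in WT and 34.7% in *eat-2* mutants, and those called higher took 14.4% in WT and a larger share in the mutants. Since calls need enough counts, small changes of low genes, up or down, were less likely to be called than the same changes of high genes. The part of this in the link of direction and level was not tested.

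**Figure D1:**
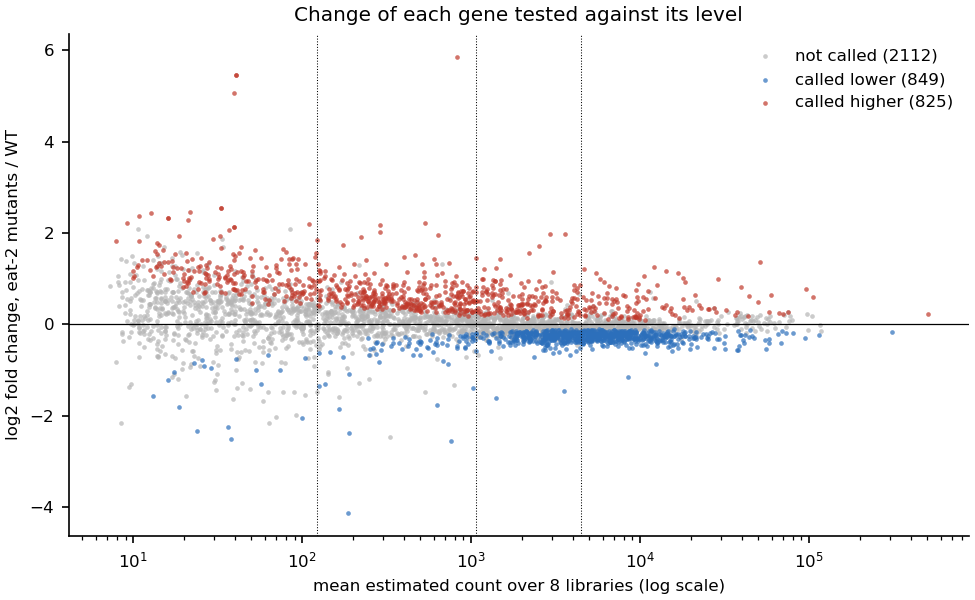
Log2 fold change of each of the 3786 tested genes (*eat-2* mutants over WT, vertical axis) against its mean estimated count over the 8 libraries (horizontal axis, log scale), with dotted lines between the 4 classes of level. The 849 genes called lower form a dense band of small falls at high counts, whereas the 825 genes called higher reach larger changes and lie further to the left.

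Marker genes of germline, intestine and body wall muscle moved as groups, and those of the other tissues were less uniform. All 6 germline markers in the files fell, some of which also stand in the oocyte and meiosis lists, and their summed level was 7690, 7810, 8130 and 8410 CPM in *eat-2* replicates 1 to 4 against 9630, 10100, 10900 and 10200 CPM in WT. All 4 intestine markers rose, with a summed level of 34400 to 39100 CPM against 27900 to 30900 CPM, and so did 12 of 13 body wall muscle markers (5310 to 6530 CPM against 3860 to 4310 CPM). For these 3 tissues the groups did not overlap. Of all genes at the same levels as the germline markers, 46.9% fell (this share is defined below). The shares that rose were 17.6% at the levels of the intestine markers and 20.8% at those of the body wall muscle markers. Most of the intestine sum was that of the yolk protein gene *vit-2*, whose rise (log2 fold change 0.24) was the smallest of the 4. The 5 pharynx markers summed to 263 to 286 CPM against 170 to 202 CPM, although only 2 of them, the pharyngeal myosin gene *myo-1* and the troponin gene *tni-4*, passed the test. Neuron markers were at 380 to 391 CPM against 333 to 358 CPM, with 5 of 6 tested members higher and 1 lower (3 higher without *eat-2* replicate 2 or without replicate 3). Hypodermis markers overlapped between the groups (143 to 209 CPM against 144 to 311 CPM), and the pair of sperm markers was low in both (1.42 to 7.81 CPM against 3.81 to 31.3 CPM). Of all these markers, 1 neuron marker was at 0 in all 8 libraries. In RNA of whole animals, fewer cells of a type and less RNA per cell cannot be told apart, and the part of tissue composition in the results on gene groups was not tested.

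**Figure D2:**
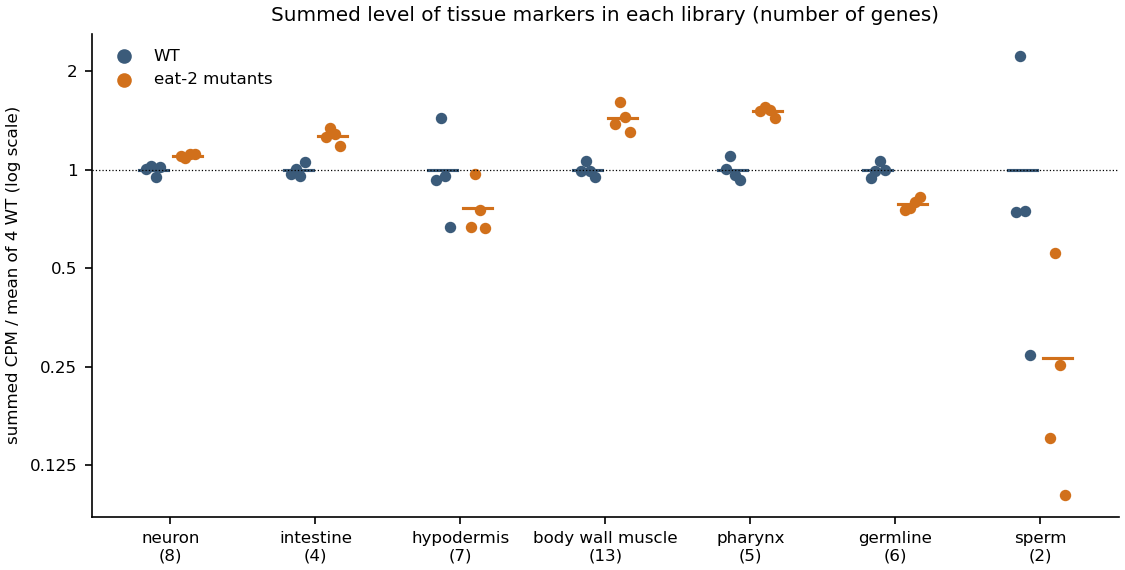
Summed CPM of the marker genes of 7 tissues in each library, divided by the mean of the 4 WT libraries (vertical axis, log scale), with the number of genes in parentheses and a bar at each group's mean. The *eat-2* libraries lie below all WT libraries for germline markers and above them for neuron, intestine, body wall muscle and pharynx markers, and the groups overlap for hypodermis and sperm markers.

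Genes of oocytes and of the early embryo were lower in *eat-2* mutants almost throughout. Of 20 tested members of this list, 17 fell (85%, against 44.2% of all genes at the same levels), 1 rose and 2 were not called, with a median log2 fold change of -0.38. The share at the same levels is the mean, over the members, of the share of all genes called in each member's class of level. The gene *spn-4*, which encodes an RNA-binding protein of oocytes and early embryos (chromosome V, 6783187 to 6784903, WBcel235), was at 2559, 2552, 2611 and 2785 CPM in *eat-2* mutants and at 3726, 3799, 4053 and 3691 CPM in WT. Every mutant library was below every WT library, a 1.45-fold lower level (log2 fold change -0.54, standard error 0.05, adjusted p = 0.000111, edgeR), and reads of the overlapping gene ZC404.15 cannot be told apart from its own. For *oma-2*, a zinc finger protein needed for oocyte maturation, the values were 1800, 1746, 1926 and 2048 CPM against 2464, 2590, 2844 and 2584 CPM. This was again a fall without overlap (-0.48, standard error 0.06, adjusted p = 0.00057, edgeR). Other members that fell were the eggshell genes *chs-1* (chitin synthase, -0.49) and *cpg-3* (-0.55), the egg surface genes *egg-2* (-0.45) and *egg-3* (-0.41), and the germ lineage regulator *pie-1* (-0.37). The only member that rose, *dve-1* (0.42), is a homeodomain factor known for its part in the mitochondrial stress response. The yolk receptor of oocytes, *rme-2*, fell (-0.34), from 2419 to 2925 CPM in WT to 1959 to 2177 CPM.

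Germline stem cell, meiosis and P granule genes fell too. In this list 9 of 12 tested members were lower (75%, against 35.3% of all genes at the same levels). None was higher (1 without WT replicate 1) and the median was -0.30. The meiotic gene *dsb-1*, which is needed to make DNA double-strand breaks for recombination, was at 162, 177, 170 and 180 CPM in the mutants and 234, 257, 260 and 254 CPM in WT (log2 fold change -0.55, standard error 0.05, adjusted p = 0.000111, edgeR). The groups were well separated, though *dsb-1* overlaps *acl-13*. The translational repressor *gld-1* fell by less (-0.26), with mutant libraries at 2341 to 2543 CPM and WT libraries at 2794 to 3028 CPM. Innexins, the gap junction proteins of invertebrates, divided within their family, as 4 fell (*inx-14*, *inx-21*, *inx-22* and *inx-11*) and 3 rose (*inx-8*, *inx-15* and *inx-16*). The call of *inx-11* was lost in 7 of the 8 fits without 1 library (all but that without WT replicate 1; adjusted p 0.0568 to 0.119) and that of *inx-15* without *eat-2* replicate 2, WT replicate 3 or WT replicate 4. The first 3 of those that fell are known from junctions between germ cells or oocytes and the gonadal sheath, but so is *inx-8*, which rose (0.22). Among small RNA pathway genes, 12 of 22 fell (54.5%, against 35.1% at the same levels, and 7 without *eat-2* replicate 1). The 3 that rose (1 without any one of *eat-2* replicates 2, 3 and 4 or WT replicate 3) were *eol-1*, *ain-2* and *eri-6*. Those that fell included *wago-1* (-0.25), an Argonaute protein of the germline, and *pgl-1* (-0.32), a P granule component that also stands in the meiosis list.

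Cell cycle genes were lower or not called, and none of the 64 tested was called higher. The 40 that fell spanned DNA replication (*mcm-4*, -0.29; *orc-3*, -0.28), mitotic kinases (*air-1*, -0.31; *cdk-1*, -0.19), cyclins of the B type (*cyb-2.2*, -0.40; *cyb-1*, -0.20) and nucleoporins (*npp-3*, -0.27). The median was -0.19. The phosphatase gene *cdc-25.1*, which activates cyclin-dependent kinase in dividing germ cells, was at 603, 614, 626 and 674 CPM in *eat-2* mutants and 784, 818, 888 and 835 CPM in WT. All 4 mutant values were below all 4 WT values (log2 fold change -0.40, standard error 0.05, adjusted p = 0.000493, edgeR). Falls in this list were between -0.42 and -0.12. They made up 62.5% of its members, against 38.4% of all genes at the same levels, and 1 member was called higher without WT replicate 2 or without WT replicate 3.

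Sperm genes were uneven between replicates. The list median was -0.66, but 3 of 12 tested members passed the test, *spe-39* (-0.23) and *ssp-9* (-2.04) lower and *try-5* (0.88) higher. Falls (16.7%) and rises (8.33%) stood beside 5.96% and 25.2% of all genes at the same levels. The count of falls moved with single libraries, to 4 without *eat-2* replicate 2 and 5 without WT replicate 4, and to 1 without any other library. The sperm phosphatase gene *gsp-4* (-1.68) was among those called without WT replicate 4 (adjusted p = 0.0142, edgeR). The gene *try-5*, a protease of male seminal fluid, was at 22.5, 18.4, 23.4 and 23.1 CPM in the mutants and 15.4, 10.5, 8.87 and 12.4 CPM in WT. The groups did not overlap (adjusted p = 0.00301, edgeR), and 10 of the 12 sperm genes had a log2 fold change below 0. The sperm-specific *ssp-9* was at 0.847, 5.30, 1.71 and 0.768 CPM against 6.93, 19.7, 6.07 and 3.16 CPM, so the groups overlapped, and the call (adjusted p = 0.0414, edgeR) was lost without any one of *eat-2* replicates 1, 3 and 4 or WT replicates 1, 2 and 3 (adjusted p 0.0555 to 0.137).

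Neuropeptide genes were higher in *eat-2* mutants with a single exception. Of the 19 tested genes for FMRFamide-like, neuropeptide-like and insulin-like peptides, 18 rose (94.7%, against 27.7% of all genes at the same levels). Only *nlp-24* did not pass (log2 fold change 0.09), and the list median was 0.80. All 6 *flp* genes tested and 8 of 9 *nlp* genes were called higher. The gene *nlp-49* (chromosome X) was at 107, 104, 110 and 109 CPM in *eat-2* mutants and 55.2, 57.2, 53.2 and 55.5 CPM in WT. Its replicates were tight and the groups far apart, a 1.95-fold higher level (log2 fold change 0.96, standard error 0.05, adjusted p = 7.44e-06, edgeR). For *nlp-80* the values were 56.2, 52.97, 55.8 and 51.7 CPM against 23.1, 28.8, 22.1 and 25.1 CPM (1.13, standard error 0.09, adjusted p = 8.33e-05, edgeR). The circadian-type peptide gene *pdf-1* (0.52), the gut-expressed *nlp-40* (0.50), which triggers the defecation step of the motor cycle, and the insulin-like gene *ins-17* (0.64) rose as well. The neuron marker *egl-21*, a carboxypeptidase that trims neuropeptide precursors, rose from 90.5 to 97.5 CPM in WT to 135 to 148 CPM (0.56). The 5 neuron markers that rose did so by 0.43 to 0.95, and their part in the rise of neuropeptide genes was not tested.

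Receptors and channels followed in part. Of 10 tested ligand-gated channel subunits, 5 rose (50%, against 26.1% of all genes at the same levels), none fell and the median was 0.70. Their median level of 88.0 counts lies in the lowest class, whose median log2 fold change was 0.42. Of 32 tested potassium, TRP, DEG/ENaC and other ion channels, innexins included, 9 rose and 4 fell. Those shares (28.1% and 12.5%) were near the 25.7% and 13.4% of all genes at the same levels. Among the ligand-gated subunits that rose was *avr-15*, a glutamate-gated chloride channel subunit that acts in pharyngeal muscle, at 7.32, 7.87, 9.18 and 8.69 CPM against 4.43, 6.16, 4.32 and 3.55 CPM in WT. The groups did not overlap (log2 fold change 0.84, standard error 0.19, adjusted p = 0.00594, edgeR), and *avr-15* overlaps *gut-2*. In the short list of acetylcholine signalling, the muscarinic receptor gene *gar-3* (0.71) and the acetylcholinesterase gene *ace-1* (0.59) rose. The sodium pump gene *eat-6* fell (-0.25), from 1470 to 1757 CPM to 1264 to 1407 CPM. The nicotinic receptor subunit gene *unc-29* had a log2 fold change of 0.32 and did not pass the test.

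Muscle genes rose as a group. Of 36 tested members of the body wall and pharyngeal muscle list, 23 were higher and 3 lower, and the median log2 fold change was 0.54. The shares were 63.9% higher and 8.33% lower, against 20.9% and 29.9% of all genes at the same levels. The body wall myosin gene *unc-54* was at 790, 974, 894 and 736 CPM in *eat-2* mutants and at 546, 623, 581 and 536 CPM in WT. No mutant library reached down to the WT range (log2 fold change 0.57, standard error 0.09, adjusted p = 0.000997, edgeR). Pharyngeal myosin *myo-1* was at 116, 127, 120 and 103 CPM against 55.2, 73.0, 59.5 and 50.4 CPM, a 1.95-fold higher level (0.97, standard error 0.12, adjusted p = 0.000367, edgeR). Troponins of several kinds rose (*tni-3*, 0.90; *tnt-3*, 0.93; *pat-10*, 0.86), as did the giant kinase gene *unc-22* (0.77), paramyosin *unc-15* (0.55) and tropomyosin *lev-11* (0.58). The 3 that fell were the calponin gene *cpn-1* (-0.58), the actin gene *act-2* (-0.27) and the myosin light chain gene *mlc-5* (-0.15), and actin genes have near-identical copies among which reads may be split. Of 8 tested genes of basement membrane and matrix, 5 rose (62.5%, against 20.7% at the same levels) and none fell. Among the rises was the type IV collagen gene *let-2* (0.60), at 612 to 754 CPM against 398 to 519 CPM.

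**Figure D3:**
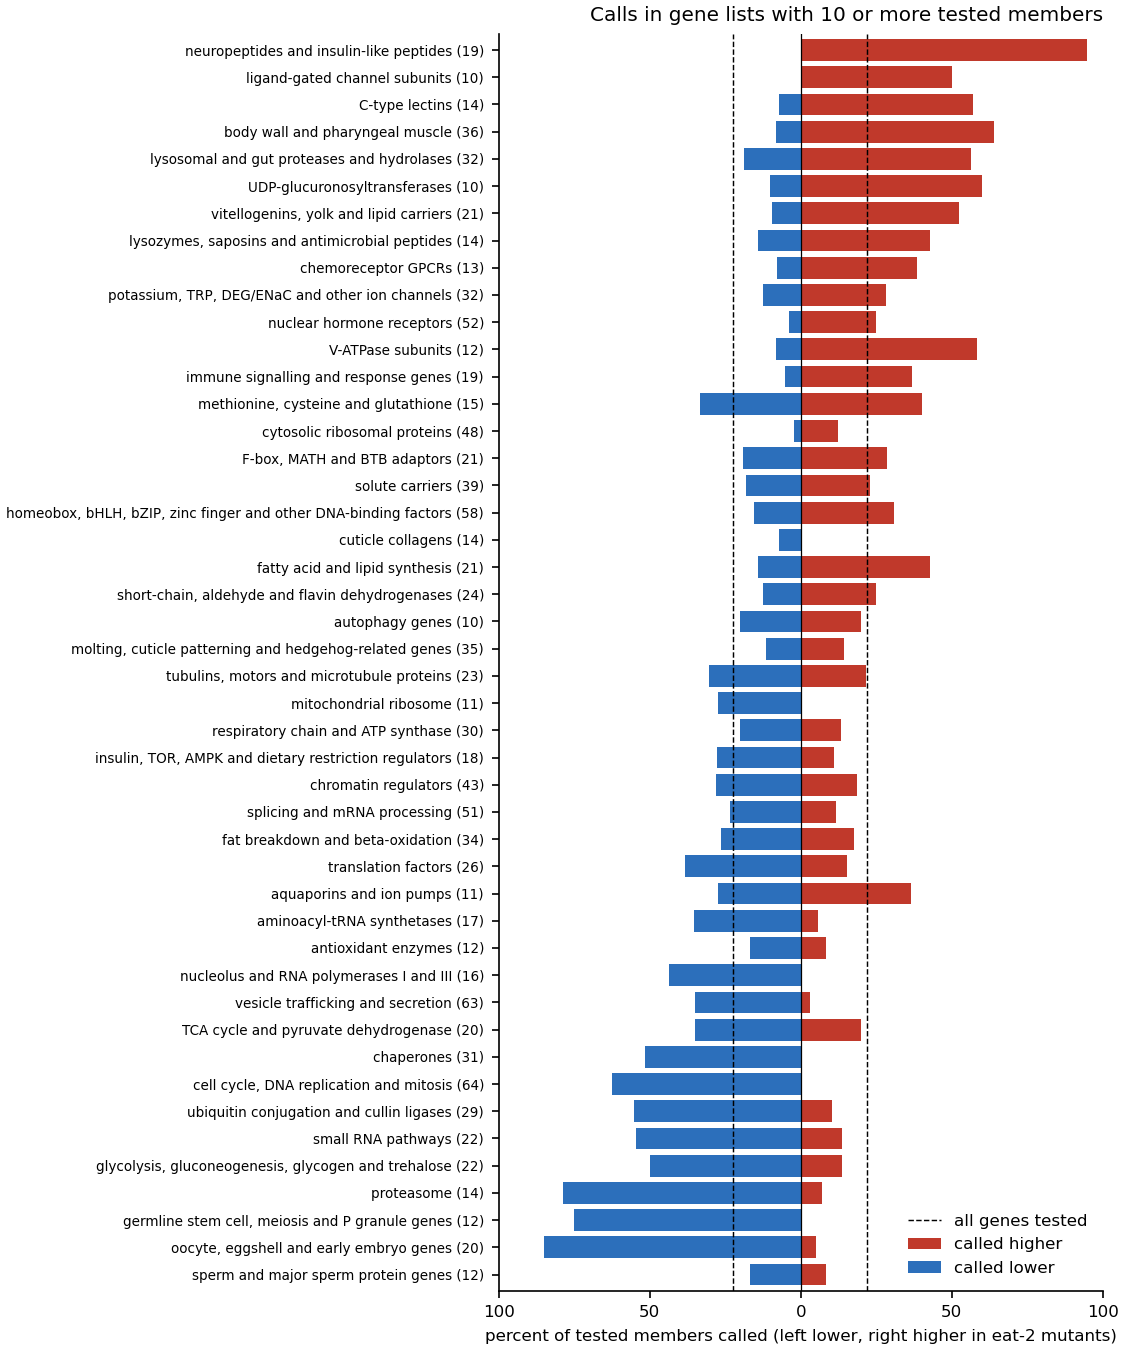
Percent of tested members called higher (right) and lower (left) in *eat-2* mutants for each gene list with 10 or more tested members, whose number is in parentheses, ordered by median log2 fold change. Dashed lines mark the shares over all genes tested, 21.8% higher and 22.4% lower. Neuropeptides, ligand-gated channel subunits and C-type lectins stand at the top, followed by muscle genes and gut hydrolases, and oocyte, meiosis and proteasome genes stand near the bottom.

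Digestive and lysosomal enzymes of the gut were raised. Of 32 tested proteases and hydrolases, 18 rose and 6 fell, with a median of 0.51. Rises (56.2%) and falls (18.8%) stood beside 22.8% and 22.4% of all genes at the same levels. The intestinal aspartyl protease gene *asp-1* (chromosome V, 19049562 to 19050752) was at 4488, 4451, 4413 and 3960 CPM in *eat-2* mutants and at 1643, 1902, 1515 and 1653 CPM in WT. The lowest mutant library was far above the highest WT library, and the fitted difference was 2.58-fold (log2 fold change 1.37, standard error 0.08, adjusted p = 7.44e-06, edgeR). Its relative *asp-5* was at 2317, 2287, 2053 and 2288 CPM against 1079, 1318, 1075 and 1047 CPM (0.99, adjusted p = 6.71e-05, edgeR). The acid phosphatase gene *pho-1* of the gut (1.15) and the sphingomyelinase gene *asm-1* (0.71) also rose. In contrast the hexosaminidase gene *hex-1* fell, at 165, 140, 156 and 146 CPM against 226, 290, 174 and 232 CPM (-0.60, adjusted p = 0.00539, edgeR). Acid phosphatases did not all move one way, as *pho-4* (1.04), *acp-1* (0.77) and *acp-2* (1.17) rose with *pho-1* while *pho-5* fell (-0.42).

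The proton pump of acidic compartments, the V-ATPase, had 7 of 12 tested subunits higher and 1 lower (median 0.23). The shares were 58.3% and 8.33%, against 13.6% and 43.5% of all genes at the same levels. The intestinal subunit gene *vha-6*, which acidifies the gut lumen, was at 303, 377, 286 and 260 CPM against 146, 186, 166 and 180 CPM, with no overlap (0.86, standard error 0.12, adjusted p = 0.00057, edgeR). The lower one was *vha-18* (-0.41), which overlaps F52E1.2. Genes of autophagy moved little, with 2 higher and 2 lower of 10 tested (20% each, against 19.0% and 33.6% at the same levels). Their changes were between -0.28 and 0.33. Of these, the call of the cargo receptor gene *sqst-1* (0.33, adjusted p = 0.0313, edgeR) was lost without any one of *eat-2* replicates 1, 3 and 4 or WT replicates 2 and 3 (adjusted p 0.0518 to 0.0867). The lysosomal regulator *hlh-30* was at 0.13 and did not pass the test.

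In lipid metabolism, carriers and desaturases were higher while genes of fat breakdown were mixed. Of 21 tested genes for yolk and lipid carriers, 11 rose and 2 fell (1 fell without any one of *eat-2* replicates 1, 3 and 4 or WT replicates 2 and 3), with a median of 0.36. Rises (52.4%) and falls (9.52%) stood beside 20.1% and 29.4% of all genes at the same levels. The fatty acid and retinol binding protein gene *far-2* was at 7498, 6982, 7090 and 6881 CPM in the mutants and 4105, 4446, 3990 and 4184 CPM in WT. The replicates varied little beside the difference (0.77, standard error 0.05, adjusted p = 2.77e-05, edgeR). Transthyretin-related genes contributed 6 rises and no fall among 11 tested, the largest in *ttr-16* (1.25), which overlaps *lin-3*. The yolk protein gene *vit-2* was at 31640, 33590, 32340 and 29900 CPM against 26360, 27000, 25990 and 28790 CPM, a small but separated difference (0.24, adjusted p = 0.00873, edgeR). So RNA of *vit-2*, the only yolk protein gene tested, rose while RNA of the yolk receptor *rme-2* fell.

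Of 21 tested genes of fatty acid and lipid synthesis, 9 rose (42.9%, against 17.3% at the same levels) and 3 fell (14.3%, against 35.1%). The desaturase gene *fat-2*, which makes linoleic acid from oleic acid, was at 3225, 2927, 2827 and 2723 CPM against 1766, 2023, 1594 and 1256 CPM (0.82, standard error 0.13, adjusted p = 0.00103, edgeR). All mutant libraries were above all WT libraries. The later desaturase *fat-4* (0.42) rose, as did *fat-3* (0.38), whose call was lost without *eat-2* replicate 1, WT replicate 3 or WT replicate 4 (adjusted p 0.0601 to 0.0859). By contrast, the stearoyl-CoA desaturase gene *fat-6* was at 0.11 and not called, and the elongase gene *elo-1* was uneven (0.69, adjusted p = 0.154, edgeR; 1.04, adjusted p = 0.0386 without WT replicate 2). In the methylation route to phosphatidylcholine, both *pmt-1* (a methyltransferase, 0.79) and *sams-1* (0.82), whose product S-adenosylmethionine gives the methyl groups, rose. Another synthetase gene, *sams-3*, fell (-0.45). Among 34 tested genes of fat breakdown 6 rose and 9 fell (median -0.06). The rises (17.6%) and the falls (26.5%) stood beside 17.5% and 36.3% of all genes at the same levels. The acyl-CoA dehydrogenase gene *acdh-2* rose 2.69-fold and overlaps *ins-13*, while its family members *acdh-3* (-0.45), *acdh-11* (-0.21) and *acdh-12* (-0.25) fell.

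Defence genes of the gut rose more often than they fell. Of 14 tested C-type lectins 8 rose and 1 fell (2 fell without *eat-2* replicate 2), with a median of 0.69. Of 14 lysozymes, saposins and antimicrobial peptides 6 rose and 2 fell (5 fell without WT replicate 4), with a median of 0.36. The immune response gene *irg-4*, a CUB-like domain protein induced by pathogens (chromosome IV, 12435833 to 12438236), was at 44.4, 71.1, 47.2 and 40.9 CPM in *eat-2* mutants and 11.10, 13.2, 11.6 and 7.87 CPM in WT. It had the largest rise of any gene that met the rule for single genes, 4.65-fold (log2 fold change 2.22, standard error 0.21, adjusted p = 0.000122, edgeR). The saposin-like gene *spp-18* was at 378, 338, 334 and 297 CPM against 92.7, 112, 63.5 and 72.8 CPM (1.98, adjusted p = 7.53e-05, edgeR). The lectin gene *clec-67* was at 213, 275, 232 and 193 CPM against 50.4, 83.7, 66.6 and 75.3 CPM (1.73, adjusted p = 0.000111, edgeR). In both genes every mutant library was far above every WT library. The saposins *spp-1* (0.70), *spp-4* (1.21) and *spp-5* (0.65) and the lysozyme gene *lys-8* (0.36) rose too, while the secreted protein gene *scl-2* fell (-1.15).

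In the list of immune signalling and response genes, which includes *irg-4*, 7 of 19 tested rose and 1 fell. The MAP kinase kinase gene *sek-1* of the p38 pathway was at 195, 189, 198 and 201 CPM against 177, 141, 155 and 161 CPM (0.30, adjusted p = 0.0049, edgeR), and the bZIP factor genes *zip-2* (0.37) and *cebp-1* (0.51) rose. In the TGF-beta pathway the Smad gene *sma-2* rose (0.52), and it overlaps *aak-1*. The receptor gene *daf-4*, the one that fell (-0.36), was not called without any one of *eat-2* replicates 3 and 4 or WT replicates 2, 3 and 4 (adjusted p 0.05 to 0.0797). In the intracellular pathogen response, 4 of 7 tested genes rose (57.1%, against 27.6% at the same levels) and none fell. Among them *pals-3* was at 1.57, 3.16, 1.97 and 1.89 CPM against 0.261, 0.440, 0.583 and 0.258 CPM, low values that overlap in position with *pals-4* and *pals-12*. Detoxification genes did not all move one way. Of 4 tested glutathione S-transferases, 2 rose (50%, against 25.8% at the same levels) and none fell. Of 24 short-chain, aldehyde and flavin dehydrogenases, 6 rose (25%, against 20.6%) and 3 fell (12.5%, against 23.2%). With any 1 library left out 1 to 2 of them fell. UDP-glucuronosyltransferases had 6 members higher (60%, against 23.5%, and 3 without *eat-2* replicate 2) and 1 lower of 10. Of 5 cytochrome P450 genes, however, 2 fell (40%, against 12.8%). Of 12 antioxidant genes 1 rose (8.33%, against 18.3%) and 2 fell (16.7%, against 34.7%). No antioxidant gene rose without *eat-2* replicate 2, *eat-2* replicate 3 or WT replicate 3, and 1 fell without *eat-2* replicate 3 or WT replicate 4. The superoxide dismutase gene *sod-1* was at 0.02 and not called.

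Of 22 tested genes of glycolysis, gluconeogenesis, glycogen and trehalose, 11 fell (50%, against 41.4% of all genes at the same levels) and 3 rose (median -0.20). The glycogen debranching enzyme gene *agl-1* (chromosome II, 14350713 to 14358113) was at 107, 95.8, 112 and 122 CPM in the mutants and 289, 279, 324 and 316 CPM in WT. All mutant values were far below the lowest WT value, a 2.77-fold lower level (log2 fold change -1.47, standard error 0.08, adjusted p = 7.44e-06, edgeR), and *agl-1* overlaps *elof-1*. Duplicated enzymes moved apart. Aldolase *aldo-1* rose, at 214, 199, 228 and 205 CPM against 155, 130, 128 and 147 CPM (0.59, adjusted p = 0.000367, edgeR), and *aldo-2* fell, at 1632, 1437, 1443 and 1579 CPM against 1859, 1949, 1908 and 1896 CPM (-0.32, adjusted p = 0.00118, edgeR). Of the glyceraldehyde-3-phosphate dehydrogenases, *gpd-2* (0.16) and *gpd-3* (0.17) rose and *gpd-1* (-0.53) and *gpd-4* (-0.51) fell, and each of these pairs is nearly identical in sequence, so its reads may be shared. The *gpd-2* call was lost without any one of *eat-2* replicate 1 or WT replicates 3 and 4 (adjusted p 0.0506 to 0.0805).

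Mitochondrial genes changed little as a group. Of 30 tested genes of the respiratory chain and ATP synthase, 4 rose, 6 fell and the median was -0.03. The subunit b genes of ATP synthase differed in direction, as *asb-2* rose (0.25) and *asb-1*, which is known as the copy used in the germline, fell (-0.46). Mutant libraries held *asb-1* at 515, 582, 456 and 491 CPM against 622, 747, 802 and 635 CPM in WT, without overlap (adjusted p = 0.00483, edgeR). The complex II genes *sdha-2* (-0.40) and *sdhb-1* (-0.17) fell. In the TCA cycle 4 genes rose and 7 fell of 20 (median -0.14). Of 8 mitochondrial chaperone, import and dynamics genes 5 fell (62.5%, against 36.9%) and 1 rose. The falls numbered 3 without *eat-2* replicate 1, without *eat-2* replicate 3 or without WT replicate 3. The mitochondrial stress regulator *atfs-1* was among those that fell (-0.29).

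Proteasome genes were lower. Of 14 tested, 11 fell (78.6%, against 45.9% of all genes at the same levels) and 1 rose, with a median of -0.26. The lid subunit gene *rpn-9* was at 593, 587, 553 and 584 CPM in *eat-2* mutants and at 717, 789, 817 and 714 CPM in WT. The difference was small but far beyond the spread (log2 fold change -0.39, standard error 0.05, adjusted p = 0.000608, edgeR). The one that rose was *ubh-4* (0.17), a deubiquitinase that associates with the proteasome. Of 31 chaperone genes 16 fell (51.6%, against 43.4% at the same levels) and none rose (1 rose without *eat-2* replicate 4, WT replicate 1 or WT replicate 4), with a median of -0.16. They included the cytosolic chaperonin subunit *cct-6* (-0.33), at 762 to 796 CPM against 934 to 1037 CPM, the constitutive Hsp70 gene *hsp-1* (-0.30) and the endoplasmic reticulum Hsp70 gene *hsp-4* (-0.25). Ubiquitin conjugation had 16 falls among 29 (55.2%, against 37.8%), while the 22 falls among 63 genes of vesicle trafficking (34.9%) were near the 36.4% of all genes at their levels.

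Translation genes differed between lists. Of 48 tested cytosolic ribosomal protein genes 43 had a log2 fold change above 0 and 5 one below 0 (median 0.17). By the test 6 rose (12.5%, against 13.7% of all genes at the same levels) and 1 fell (2.08%, against 42.8%). The rises numbered 3 without any one of *eat-2* replicates 1 and 2 or WT replicates 1, 3 and 4, and 11 without WT replicate 2. The count of rises was 13 with scaling by library size alone and 22 with a replicate block. The largest of the called changes was in *rpl-31*, at 353, 473, 363 and 335 CPM against 140, 206, 162 and 149 CPM (1.22, standard error 0.14, adjusted p = 0.000319, edgeR), which set it apart from the other ribosomal protein genes called, all between -0.17 and 0.38. The gene *rps-6* was uneven, at 119, 63.9, 25.6 and 13.6 CPM against 18.9, 25.8, 31.1 and 13.3 CPM, and was called only without *eat-2* replicate 4 (1.64, adjusted p = 0.0221). Initiation, elongation and other translation factors had 10 falls and 4 rises among 26. The share of falls (38.5%) was near the 42.1% of all genes at the same levels. The share of rises (15.4%) was also near that of all genes at those levels. The scaffold *ifg-1* (eIF4G), known for its link to lifespan, fell from 258 to 329 CPM to 198 to 221 CPM (-0.52, adjusted p = 0.000687, edgeR), and it overlaps *dab-1*. Of 17 aminoacyl-tRNA synthetases 6 fell (35.3%), near the 36.9% of all genes at their levels, and of 16 nucleolar and RNA polymerase I and III genes 7 fell (43.8%, against 40.0%).

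Regulators of nutrient sensing showed modest changes. Of 18 tested genes of the insulin, TOR and AMPK pathways and of dietary restriction, 2 rose and 5 fell (median -0.04). The FOXO factor gene *daf-16*, which insulin signalling restrains, was at 63.1, 78.5, 72.5 and 67.3 CPM in *eat-2* mutants and at 44.0 to 53.8 CPM in WT. The lowest mutant value lay above the highest WT value (log2 fold change 0.50, standard error 0.09, adjusted p = 0.002, edgeR). The zinc finger factor *pqm-1*, known to act opposite to *daf-16* on many targets, rose by a like amount (0.54, adjusted p = 0.0049, edgeR). The kinase gene *akt-1* of the insulin pathway was at 609, 609, 651 and 673 CPM against 781, 809, 849 and 829 CPM (-0.36, adjusted p = 0.000513, edgeR). The AMPK genes *aak-1* (-0.25) and *aakg-5* (-0.35) also fell, as did the ubiquitin ligase gene *wwp-1* (-0.21). The deacetylase gene *sir-2.1* fell by 0.12 on the log2 scale, a call lost without any one of *eat-2* replicates 1 and 3 or WT replicate 3 (adjusted p 0.0518 to 0.0738).

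The receptor gene *daf-2* (-0.15) was not called (adjusted p = 0.15, edgeR). It was called when WT replicate 1 was left out (-0.22, adjusted p = 0.0155). The factor gene *skn-1* (-0.11) was called only without *eat-2* replicate 1 (-0.21, adjusted p = 0.0484), and *nhr-49* (-0.05) was not called. Of 7 tested genes used as reporters of DAF-16 activity, 2 rose (*lys-8*, 0.36; *aqp-1*, 0.55) and 3 fell (*ftn-1*; *lea-1*, -0.43; *ctl-1*, -0.29), so they did not move one way. These rises (28.6%) and falls (42.9%) stood beside 18.4% and 35.7% of all genes at the same levels. The *aqp-1* call was lost without any one of *eat-2* replicates 1, 2 and 4 or WT replicates 1 and 3 (adjusted p 0.0557 to 0.104).

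Of 52 tested nuclear hormone receptors, 13 were higher (25%, against 21.8% of all genes and 27.8% at the same levels) and 2 lower (5 without WT replicate 1 and 1 without any other library). The share of rises was thus near that of all genes. The gene *nhr-31*, known to control V-ATPase genes of the excretory cell, was at 41.0, 54.9, 67.1 and 42.6 CPM against 19.9, 16.8, 20.6 and 19.4 CPM. Mutant libraries varied among themselves but all were well above WT (log2 fold change 1.42, standard error 0.16, adjusted p = 0.000287, edgeR). Of 58 other DNA-binding factors 18 rose (31.0%, against 25.3% of all genes at the same levels) and 9 fell (15.5%, against 19.1%). Those that rose included the stress response gene *atf-4* (0.51) and the ETS factor gene *ets-4* (0.61).

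The largest changes of single genes were taken from called protein-coding genes that have a symbol, average 100 counts or more per library and show no overlap of groups, of which 335 were higher and 529 lower. The 12 largest rises ran from 2.22 to 1.37 on the log2 scale. Besides *irg-4*, *spp-18*, *clec-67*, *asp-1*, *acdh-2* and *nhr-31*, they were *asah-1*, *cln-3.3*, *endu-2*, *let-383*, *asp-12* and *tsp-10*. The acid ceramidase gene *asah-1*, a lysosomal enzyme (chromosome I, 12505114 to 12507569), was at 276, 296, 265 and 262 CPM in *eat-2* mutants and 71.0, 88.8, 53.2 and 64.4 CPM in WT. No mutant library came near the WT range, and the fitted difference was 3.96-fold (log2 fold change 1.98, standard error 0.13, adjusted p = 2.77e-05, edgeR). The homologue *cln-3.3* of a human gene for a lysosomal membrane protein was at 15.6, 18.6, 16.6 and 12.5 CPM against 4.22, 5.39, 4.08 and 5.16 CPM (1.75, adjusted p = 0.000117, edgeR). The secreted endoribonuclease gene *endu-2* was at 202, 181, 211 and 181 CPM against 65.9, 74.2, 51.0 and 71.9 CPM (1.56, adjusted p = 4.47e-05, edgeR).

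The 12 largest falls ran from -2.37 to -0.57, and only 7 of them passed -1. They were *srw-85*, *ftn-1*, *ugt-64*, *agl-1*, *nas-20*, *slc-36.5*, *scl-2*, *bpl-1*, *somi-1*, *hex-1*, *cpn-1* and *dcp-66*. The astacin metalloprotease gene *nas-20* was at 34.3, 29.6, 31.9 and 33.6 CPM in *eat-2* mutants and 85.7, 102, 83.0 and 70.8 CPM in WT. All mutant values were below the lowest WT value by more than the spread of either group (log2 fold change -1.40, standard error 0.11, adjusted p = 6.71e-05, edgeR). The biotin protein ligase gene *bpl-1*, which attaches biotin to carboxylases, was at 27.6, 33.3, 25.6 and 32.3 CPM against 64.2, 44.97, 54.7 and 52.96 CPM (-0.87, adjusted p = 0.000765, edgeR), and it overlaps *scly-1*. The ferritin gene *ftn-1*, for iron storage, fell by 3.38-fold while the iron-responsive aconitase gene *aco-1* (0.48) and the heme transporter gene *hrg-4* (1.06) rose. The zinc finger gene *somi-1* (-0.83) was no longer called without WT replicate 1 (-0.70, adjusted p = 0.0571) or in the fit over all 12 libraries (-0.83, adjusted p = 0.3).

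**Figure D4:**
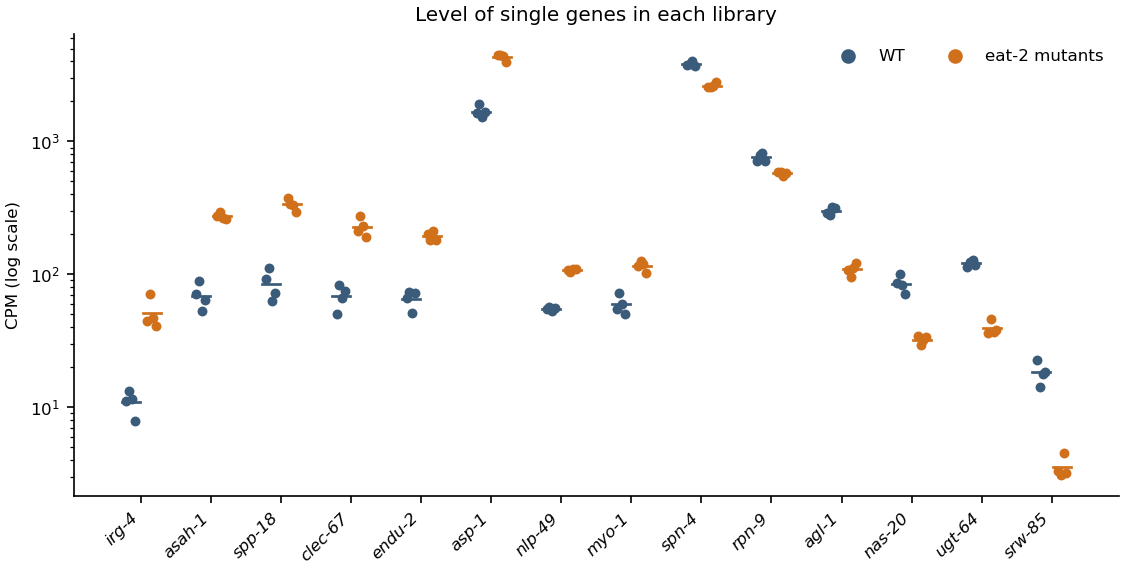
CPM in each library (vertical axis, log scale) of 14 genes, 8 higher and 6 lower in *eat-2* mutants, with a bar at each group's mean. In every gene shown the 4 *eat-2* libraries and the 4 WT libraries do not overlap, from *asp-1* at 3960 to 4488 CPM against 1515 to 1902 CPM to *srw-85* at 3.10 to 4.52 CPM against 14.2 to 22.7 CPM.

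Some larger fitted changes rested on uneven libraries and fell outside that rule, and the following were chosen after their values were seen. The gene C14C6.5 was at 194, 133, 49.6 and 1.123 CPM in *eat-2* mutants and 1.36, 0.110, 4.84 and 0.129 CPM in WT, so 1 mutant library lay within the WT range. The Notch ligand gene *dsl-3* was at 4.42, 0, 0 and 0 CPM against 29.7, 31.6, 16.0 and 0 CPM, and its call was lost in 6 of the 8 fits without 1 library (adjusted p 0.0825 to 0.106). The cuticle collagen gene *col-12* was at 5.69, 33.8, 7.34 and 1.89 CPM against 63.5, 51.8 and 15.7 CPM in WT replicates 1, 3 and 4, with WT replicate 2 higher still. Of 14 tested collagens it alone was called (adjusted p = 0.0369, edgeR; 3 fell without *eat-2* replicate 2 or without WT replicate 4), and the call was lost without any one of *eat-2* replicates 1, 3 and 4 or WT replicates 1, 2 and 3 (adjusted p 0.0556 to 0.11).

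Chromosomes differed in direction. On chromosome X, 183 of 431 tested genes were higher (42.5%) and 18 lower (4.18%), with a median log2 fold change of 0.31. On the autosomes together, 641 of 3354 were higher (19.1%) and 831 lower (24.8%), with a median of -0.01. Chromosomes I and III lay furthest the other way, with 96 higher and 194 lower of 631 on I and 96 higher and 181 lower of 602 on III (median -0.06 on both). The X chromosome is largely silent in the germline, and genes of the germline are known to be scarce on it. The difference depended on level. In the lowest class 27.8% of X genes were higher and 2.06% lower, close to 21.9% and 1.88% on the autosomes, while in the highest class 26 of 43 X genes were higher and 1 lower, against 88 higher and 443 lower of 904 autosomal genes. For protein-coding genes it was clear, with 165 higher and 16 lower of 371 on X (median 0.31). On the autosomes 496 were higher and 799 lower of 2715 (median -0.05). Among pseudogenes the difference was small. On X 18 were higher and 2 lower of 60 (median 0.33), and on the autosomes 145 higher and 32 lower of 636 (median 0.28). With any 1 library left out, 155 to 187 genes on X were higher and 13 to 21 lower. The fall of germline markers, to 0.786 of the WT sum, stands beside this skew, and its part in it was not tested.

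**Figure D5:**
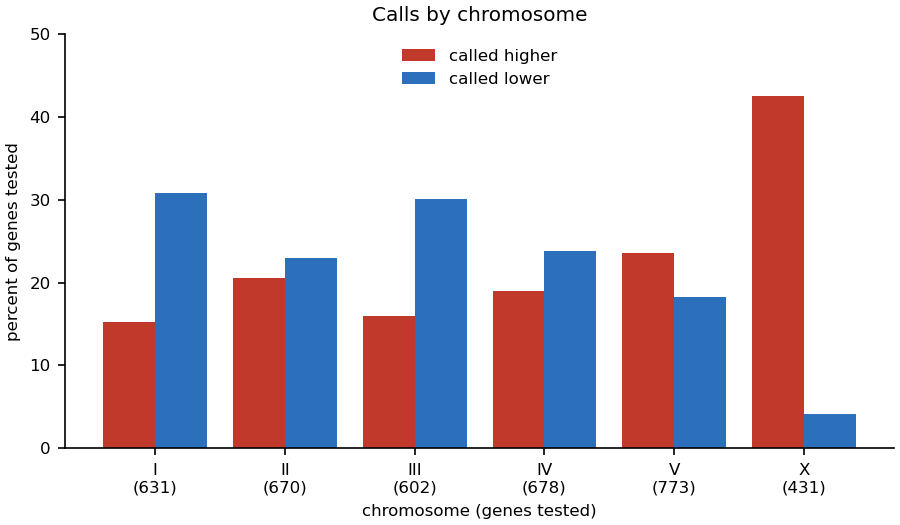
Percent of tested genes called higher and lower in *eat-2* mutants on each chromosome (horizontal axis, with the number tested in parentheses). Chromosome X has 42.5% of genes higher and 4.18% lower, while on chromosomes I to IV more genes are lower than higher.

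Pseudogenes rose more often than they fell. Of 696 tested, 163 were higher and 34 lower (28.3% called), with a median of 0.28, against 661 higher and 815 lower of 3086 protein-coding genes (47.8% called, median -0.02). Their levels were mostly low, and reads can be shared with functional copies, so each is uncertain. The pseudogene WBGene00012680 lies on chromosome V at 19047047 to 19048669 beside *asp-1*. It was at 8.83, 17.2, 9.64 and 8.93 CPM in *eat-2* mutants and 2.97, 3.74, 3.27 and 2.39 CPM in WT (log2 fold change 1.85, standard error 0.26, adjusted p = 0.000634, edgeR). The largest fall was that of WBGene00019208, at 3.87, 4.66, 3.67 and 4.26 CPM against 10.2, 19.8, 18.3 and 11.6 CPM (-1.86, adjusted p = 0.000445, edgeR).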

How the data were processed

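Messenger RNA of 8 libraries (4 *eat-2* mutants, 4 WT) was analysed. Per the labels and the study's methods, the authors quantified reads with kallisto 0.46.0 against WBcel235 and summarised transcripts to genes with tximport, and the deposited values are estimated counts per gene (length-scaled), with 14842320 to 19170837 per library over the genes in the tables, which is not the full sequencing depth. Columns of the authors' own comparisons (fold changes and p-values, DESeq2 1.24.0) were not used. Estimated counts were rounded to whole numbers, genes were filtered with filterByExpr, scaled by TMM and tested with edgeR 4.0.16 (quasi-likelihood, 2 groups, 8 libraries, R 4.3.3) with Benjamini-Hochberg adjustment, and genes at an adjusted p under 0.05 were called. CPM are TMM-scaled and, with log2 fold changes (*eat-2* mutants over WT), rest on the tested genes alone. Gene positions and overlaps came from an Ensembl annotation of the same build. Because the counting was not stated to use strand, overlapping genes are uncertain, as are near-identical paralogues.

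Gene lists and members were chosen with earlier results of these data known. Single genes were named by rule: the 12 largest rises and falls among called protein-coding genes that have a symbol, average 100 counts or more and show no overlap; the 3 largest each among sequence-named genes and pseudogenes; in each list the called members with the smallest p; and genes named in the study. Other list members named were chosen after their values were seen and were run under the same alternatives. Alternatives were DESeq2 1.42.0, other scalings and filters, a fit over all 12 libraries, a replicate block, protein-coding genes alone, stricter thresholds, and leaving out each library. Scripts were tested on simulated data.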

Additional observations from a re-analysis of the deposited data

Results flagged for a closer look

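In 72 groups of 4 libraries over 36 genes, 1 library stood far from the other 3 in 5 groups, where chance gives about 1 in 20. For *asp-1*, *eat-2* replicate 4 was low at 3960 CPM (gap of 0.858 of the group's range). For *srw-85*, *eat-2* replicate 3 was high at 4.52 CPM (0.842). For C38D9.2, WT replicate 1 stood apart at 10.3 CPM (0.835). Among pseudogenes, *eat-2* replicate 2 was high in WBGene00012680 at 17.2 CPM (0.904), and *eat-2* replicate 1 stood apart in WBGene00010092 at 12.2 CPM (0.923). The rule that picked these genes required groups without overlap, so an overlap could not be seen in any of the 5.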

How the results depend on the processing

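Of 1674 genes called, 825 were higher and 849 lower. The other tools, scalings, filters and fits gave 1416 to 1821 calls, and leaving out 1 library gave 1357 to 1631 (656 to 822 higher and 683 to 815 lower). At an adjusted p under 0.01 there were 1054 calls (483 higher), and with a change of at least 2-fold 196 (174 higher and 22 lower). For 414 named genes, 6597 values under 16 alternatives held 60 calls gained, 0 reversed and 6302 that kept their direction and their side of the threshold, and in the others the call was lost. Same-numbered replicates of the 2 groups had deviations that correlated at 0.0279, 0.216, -0.0403 and 0.216 for replicates 1 to 4. Those with unlike numbers correlated at -0.216 to 0.122, so the values of replicates 2 and 4 were the highest of all. Whether replicate numbers pair the samples was not settled, and the main fit had no replicate block. The fit with such a block gave 1821 calls (892 higher and 929 lower). With that block 22 cytosolic ribosomal protein genes rose, 5 sperm genes fell and *daf-2* was called (-0.15, adjusted p = 0.0311). Many counts within lists are small and moved by over 1.5 times with 1 library left out, and the text gives several of these moves beside the counts. The cause of these shifts was not tested. In the lowest class of level 1.90% of genes were called lower and 22.6% higher, and the part of depth in this was not tested.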

Other observations

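Replicate 2 was the highest and replicate 4 the lowest library in both groups for 146 of 3786 tested genes (3.86%). The same order was found in 5 of 14 cuticle collagens (35.7%; *col-12*, *col-88*, *col-97*, *col-166* and *col-167*) and in 7 of 12 sperm genes (58.3%), and 25 genes with it had at least a 3-fold range in both groups. The collagen gene *col-88* was at 3.21, 14.6, 3.41 and 0.828 CPM in *eat-2* mutants and 30.5, 71.8, 17.7 and 2.77 CPM in WT. The groups overlapped and the gene was not called, but it was called under 5 of 16 alternatives, among them those without *eat-2* replicate 2 and without WT replicate 4.

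Among tested genes, 8 formed 4 pairs with the same value in every library, and all 8 were called higher. They are counted as 8 genes in the totals although each pair gives 1 measurement.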
